A study of Mus musculus with 8 samples.

Results

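Homeobox genes encode transcription factors that bind DNA through a homeodomain. The 39 genes described here are autosomal members of 4 homeodomain classes, taken from a list of names: 18 paired-like genes (Alx1, Alx4, Pitx1, Pitx3, Otx1, Otx2, Otp, Phox2a, Prrx1, Prrx2, Rax, Shox2, Vsx1, Gsc, Dmbx1, Drgx, Uncx and Hesx1), 12 LIM genes (Lhx1 to Lhx6, Lhx8, Lhx9, Isl1, Isl2, Lmx1a and Lmx1b), 3 genes of the SINE class (Six2, Six3 and Six6) and the 6 Iroquois genes (Irx1 to Irx6). They were 39 of 34324 annotated protein-coding and lncRNA genes of the autosomes and the X chromosome. A total of 38 were found by symbol, and Drgx was found by a synonym, since the annotation lists it as Prrxl1. The list names genes by class and its rule uses no measured value, but it was chosen with earlier results of these data known. A list of peaks does not test the class names.

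The mark measured was H3K27me3, trimethylation of lysine 27 of histone H3, by ChIP-seq (sequencing of immunoprecipitated chromatin) of neural stem cells that had been grown from female E14.5 mouse embryos. All cells started from 1 deleted allele of Smchd1 (del), which encodes a chromatin protein of the inactive X chromosome, and 1 conditional allele (fl). Every line also carried a maternal X of 129 origin with the Xist deltaA allele, and a paternal X of Castaneus origin. The 2 del/del libraries came from cells transduced with the retrovirus MSCV-Cre-puro, to which puromycin was added 24 h later, and the 2 del/fl libraries from cells left untransduced. Cells were harvested 7 days after transduction. Since only del/del cells were transduced and selected, loss of Smchd1 and the treatment cannot be told apart. Each established line was divided between the treatments, and the labels do not say which libraries share a line. Smchd1 itself had no H3K27me3 peak in any library, and a histone mark does not check the deletion.

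H3K27me3 is laid down by Polycomb repressive complex 2 and is read by Polycomb repressive complex 1. In vertebrate cells it typically covers the promoters of developmental transcription factors that are silent in that cell type, in domains that can spread over a whole gene, and it is thin or missing at genes that the cell uses. Paired-like, LIM, SINE and Iroquois factors set up regions of the brain, eye, pituitary, limb, kidney and heart, and a neural stem cell uses only some of them. LIM factors carry a pair of LIM domains in front of the homeodomain that bind the cofactor Ldb1, SINE-class factors act with Eya coactivators, and Iroquois genes lie in genomic clusters.

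The sequences below are the 250 bases upstream of the start of 7 genes, shown because these promoters were covered by peaks in all 4 libraries, in none, or in some. They come from RefSeq on GRCm38.p6 (the same build as mm10) and run 5′ to 3′ on the gene's strand, with each CG dinucleotide in capitals. They were chosen after the values were seen. A total of 30 of the 39 genes had an entry. The first set is 1 gene of each class whose promoter was wholly covered in all 4 libraries: Otp (chr13:94875386-94875635, plus strand), Isl1 (chr13:116309689-116309938, minus strand), Six6 (chr12:72939632-72939881, plus strand) and Irx3 (chr8:91801655-91801904, minus strand).
Otp: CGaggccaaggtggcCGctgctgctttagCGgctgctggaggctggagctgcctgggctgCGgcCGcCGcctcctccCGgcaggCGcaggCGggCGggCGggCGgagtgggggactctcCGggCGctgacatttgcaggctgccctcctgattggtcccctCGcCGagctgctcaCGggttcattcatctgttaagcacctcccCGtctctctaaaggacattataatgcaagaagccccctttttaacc
Isl1: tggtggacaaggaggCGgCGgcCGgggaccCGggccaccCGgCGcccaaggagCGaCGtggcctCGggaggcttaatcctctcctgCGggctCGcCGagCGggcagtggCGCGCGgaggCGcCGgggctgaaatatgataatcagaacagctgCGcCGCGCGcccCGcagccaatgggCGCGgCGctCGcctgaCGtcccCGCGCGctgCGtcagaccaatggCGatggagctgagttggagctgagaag
Six6: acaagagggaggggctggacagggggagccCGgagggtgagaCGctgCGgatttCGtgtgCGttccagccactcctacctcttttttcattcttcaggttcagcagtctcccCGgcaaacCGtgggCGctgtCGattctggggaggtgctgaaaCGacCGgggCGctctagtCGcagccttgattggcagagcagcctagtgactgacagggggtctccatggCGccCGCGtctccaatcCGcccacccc
Irx3: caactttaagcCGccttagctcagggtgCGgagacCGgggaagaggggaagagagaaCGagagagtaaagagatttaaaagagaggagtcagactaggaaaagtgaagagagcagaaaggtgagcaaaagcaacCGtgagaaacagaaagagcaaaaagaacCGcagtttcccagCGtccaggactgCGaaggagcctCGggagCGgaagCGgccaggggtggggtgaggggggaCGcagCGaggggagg
The second set is Lhx2 (chr2:38339031-38339280, plus strand) and Prrx1 (chr1:163313651-163313900, minus strand), whose promoters were bare in all 4 libraries, and Hesx1 (chr14:27000112-27000361, plus strand), whose promoter was bare in both del/del libraries and wholly covered in both del/fl libraries.
Lhx2: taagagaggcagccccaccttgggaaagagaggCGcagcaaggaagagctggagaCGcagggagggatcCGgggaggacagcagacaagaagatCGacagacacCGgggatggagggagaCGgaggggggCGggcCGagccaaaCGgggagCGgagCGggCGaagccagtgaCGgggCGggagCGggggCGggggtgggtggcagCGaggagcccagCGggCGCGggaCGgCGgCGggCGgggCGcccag
Prrx1: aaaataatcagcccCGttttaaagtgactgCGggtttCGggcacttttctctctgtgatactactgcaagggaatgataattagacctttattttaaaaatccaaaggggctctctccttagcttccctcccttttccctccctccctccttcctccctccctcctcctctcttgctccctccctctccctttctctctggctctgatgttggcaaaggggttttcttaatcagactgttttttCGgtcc
Hesx1: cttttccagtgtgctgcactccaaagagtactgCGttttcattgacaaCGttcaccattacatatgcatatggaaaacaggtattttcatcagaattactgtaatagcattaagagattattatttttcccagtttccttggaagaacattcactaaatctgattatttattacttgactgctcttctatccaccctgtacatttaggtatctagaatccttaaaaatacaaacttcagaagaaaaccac
These windows held 18 CG dinucleotides at Otp, 33 at Isl1, 17 at Six6 and 13 at Irx3, and 25 at Lhx2, 4 at Prrx1 and 2 at Hesx1. The CG-rich promoter of Lhx2 was bare, while that of Irx3, with fewer, was covered. Over the 30 members the median was 16, and 76.7% held at least 10. Of 16456 autosomal protein-coding promoters, 51.8% held at least 10, and the share was 51.4% for those with a peak at a gene end and 51.9% for those without. CG reads the same on both strands, so each count holds for both. The 24 member promoters covered in all 4 libraries had a median of 16.5 CG dinucleotides, and the 4 bare ones (Pitx3, Prrx1, Lhx2 and Lhx3) held 16, 4, 25 and 11. Promoters such as Vsx1, with 3, and Lhx8 and Lhx9, with 4 each, were wholly covered in all 4 libraries.

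Peaks had been called in each library against its own whole-cell extract, with 11793402 to 14064030 tags used per library. The lists held 17102 to 26637 autosomal peaks, which covered 1.34% and 1.79% of the autosomes in del/del 1 and 2 and 1.45% and 1.93% in del/fl 1 and 2. Replicate 2 of each genotype thus had more peaks and more cover than replicate 1. Of 12 neural stem cell markers, Pax6 was the only one with a peak at a gene end (8.70% to 22.1% covered), and Sox2, Nes, Vim, Fabp7 and Olig2 among the others were bare. Peaks at gene ends were found at 5 of 6 neuron markers, 2 of 6 astrocyte and oligodendrocyte markers, 1 of 4 microglia and blood markers, 3 of 4 endothelial and mural markers and 2 of 4 fibroblast and mesenchymal markers. The mean cover of these other lists was 27.5% to 36.8%, 14.7% to 21.5%, 0% to 0.705%, 16.6% to 27.1% and 25% to 27.3% over the libraries, in the same order. A peak list does not separate fewer cells with the mark from less mark per cell.

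Nearly all of the 39 genes were marked. Cover at the gene ends is the percent of the windows within 2.5 kb of both annotated ends that lies in peaks, and gene body cover is the percent of the annotated span. By either measure 37 of 39 members had a peak, and those 37 had one at an end in all 4 libraries. Otx1 and Prrx1 had none in any library. Of 16456 autosomal protein-coding genes with a promoter entry, 4013 had a peak at an end in any library. At the ends, 13 members were wholly covered in all 4 libraries, 6 stayed under 50% in every library (Pitx3, Otx1, Prrx1, Prrx2, Hesx1 and Lhx2), and the others lay between. The body was wholly covered in all 4 libraries for 16 members, whose genes were 2028 to 12584 bp long. In what follows, differences are del/del minus del/fl in percentage points. They were tested with limma, a linear model that shares variance estimates across genes, with p-values adjusted over all genes with a peak (threshold 0.05). The −log10 q of a peak is the peak caller's measure of confidence, larger for stronger peaks.

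The classes differed in level. Mean cover at the ends over the 6 Iroquois genes was 91.8% and 93.5% in del/del versus 94.5% and 94.2% in del/fl, and over the 3 SINE genes 96.2% and 97.1% in del/del versus 97.5% and 94.4% in del/fl. The 12 LIM genes averaged 65.6% and 68.6% in del/del versus 67.4% and 68.3% in del/fl, and the 18 paired-like genes 58.5% and 61.8% in del/del versus 60.1% and 61.2% in del/fl. The SINE and Iroquois classes lay above the LIM class, and the LIM class above the paired-like class, in every library. The LIM and paired-like classes were 6.83 to 7.29 points apart over the libraries, while the means of their members ran from 14.1% to 100% and from 0% to 100%. Classes of 3 and 6 genes rest on few members, and no test was made over members. End cover pools the start and the far end of a gene. Among members over 5 kb with a known strand and a peak, starts averaged 76.7% in 9 paired-like and 88.3% in 11 LIM genes. They averaged 100% in 3 SINE and 2 Iroquois genes. Far ends averaged 41.55%, 46.3%, 92.7% and 100% in the same order. LIM genes were up to 160512 bp long and Iroquois genes up to 10034 bp. The part of gene length in the class order was not tested.

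**Figure D1:**
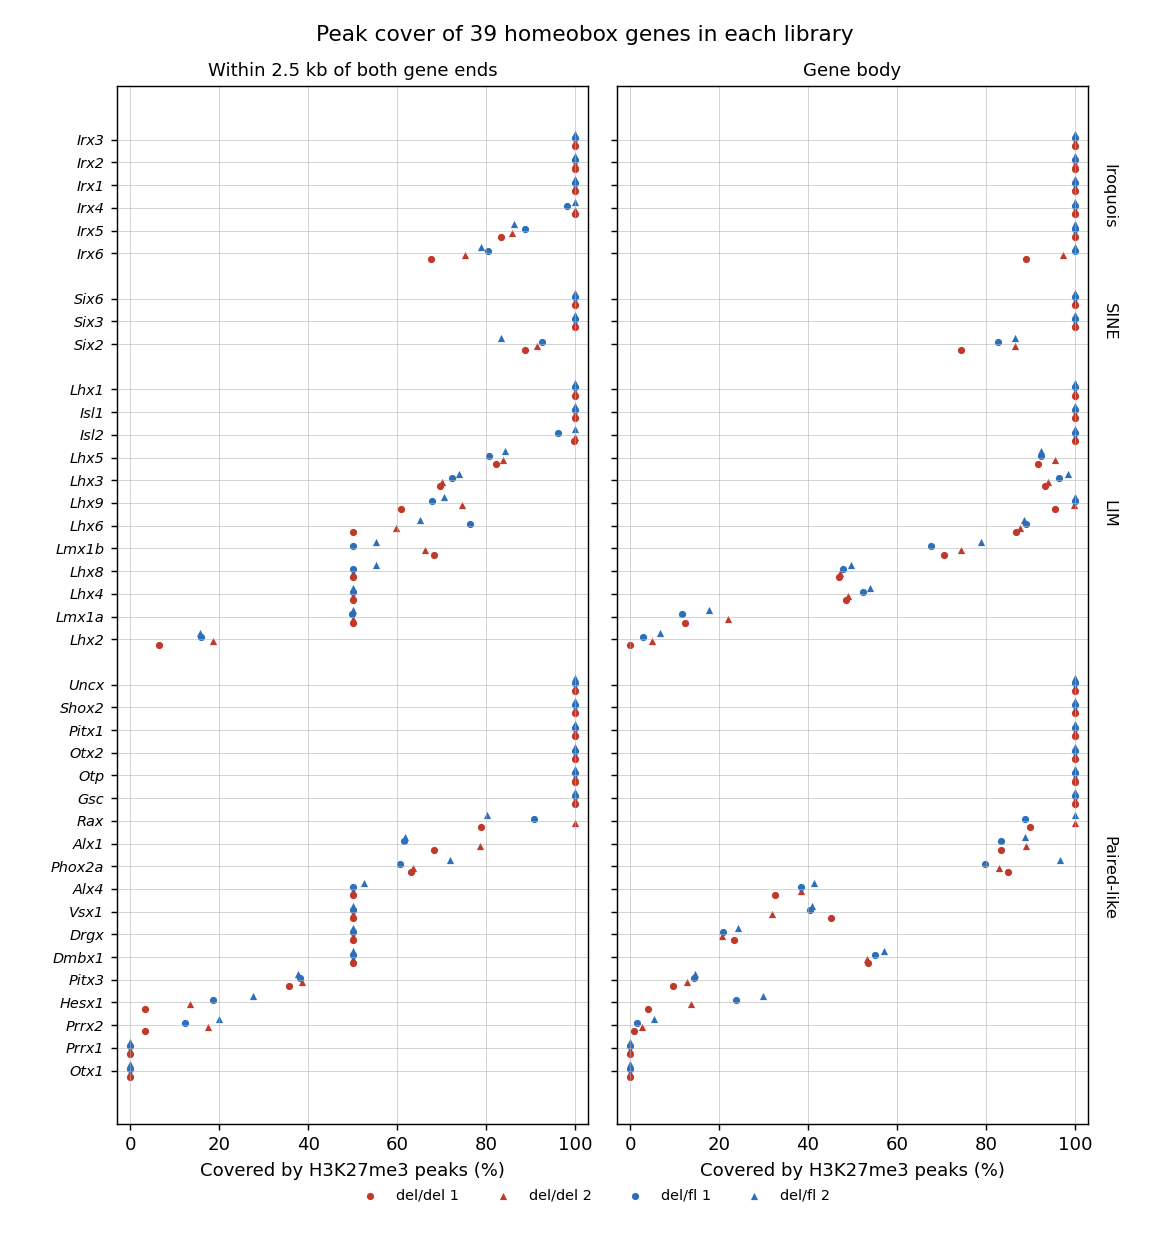
Percent of each of the 39 genes covered by H3K27me3 peaks, within 2.5 kb of both gene ends (left) and over the gene body (right). Each point is 1 library (red del/del, blue del/fl; circles replicate 1, triangles replicate 2), and genes are ordered within class by mean cover; the 13 genes wholly covered at the ends sit at 100% in all 4 libraries, and Otx1 and Prrx1 sit at 0%.

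Among the paired-like genes, 6 of 18 were wholly covered at both ends in every library. Shox2, a factor of the limb and the cardiac pacemaker, and Uncx, a factor of the somites, were at 100% in each of the 4. So were Pitx1 (hindlimb and pituitary), Otx2 (forebrain and midbrain), Otp (hypothalamic neurons) and Gsc (the organizer of the gastrula). At Otp the peaks summed to 36250 and 46124 bp in del/del versus 43328 and 41644 bp in del/fl, over a gene of 9490 bp. Uncx, at 4315 bp, had the longest peaks of the class by mean: 42176 and 43778 bp in del/del versus 39816 and 43545 bp in del/fl. The genotypes overlapped at both genes.

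The least covered genes were also paired-like. Prrx1, a factor of limb and craniofacial mesenchyme, was at 0% at ends and body in all 4 libraries. Its relative Prrx2 had weak, short peaks and end cover of 3.37% and 17.4% in del/del versus 12.3% and 19.9% in del/fl. The forebrain factor Otx1 was at 0% in every library, while its relative Otx2 was at 100%. Pitx3, a factor of midbrain dopaminergic neurons and the lens, was at 35.6% and 38.6% in del/del versus 38.1% and 37.6% in del/fl, while Pitx1 was at 100%. Otx1 and Otx2, and Pitx1 and Pitx3, thus differed widely, while Prrx1 and Prrx2 were both low. These pairs were picked out after the values were seen.

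Hesx1, a repressor of the anterior forebrain and pituitary, was low in all libraries and lower in both del/del libraries. Its end cover was 3.22% and 13.4% in del/del versus 18.7% and 27.5% in del/fl, and its body cover 4.07% and 13.7% against 23.9% and 29.97%. The libraries did not overlap, and the difference of means was −14.8 points at the ends (SE 5.93, limma adjusted p = 0.624) and −18.1 points in the body (SE 5.07, limma adjusted p = 0.507). Each library had 1 peak here, of 322 and 1337 bp in del/del versus 1889 and 2748 bp in del/fl. All were weak, with −log10 q from 1.09 to 2.81, and none was left at a −log10 q of at least 5.

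Alx1, a craniofacial factor, showed the opposite order at its ends, with 68.2% and 78.6% in del/del versus 61.6% and 61.8% in del/fl. The difference of 11.7 points (SE 4.61) had a limma adjusted p of 0.624, which became 0.0190 without del/del 1 and ranged from 0.0190 to 1 over 13 alternatives. With all peaks its body cover was 83.3% and 89.0% in del/del versus 83.4% and 88.9% in del/fl, with overlap. With only peaks of −log10 q of at least 5 its ends were at 50% in all 4 libraries. Its body was then at 63.8% and 79.4% in del/del versus 63.9% and 84.8% in del/fl, again with overlap. The other paired-like genes lay between. Rax (the eye field) was at 78.9% to 100% at its ends, Phox2a (noradrenergic and cranial motor neurons) at 60.7% to 71.9%, and Alx4 (limb and skull) at 50% to 52.5%. Vsx1 (retinal bipolar cells), Dmbx1 (midbrain and hindbrain) and Drgx (sensory neurons of the dorsal root ganglion) were at 50% in all 4 libraries, which is 1 end covered and the other bare.

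Among the LIM genes, Lhx1 (kidney and head organizer) and Isl1 (motor neurons and heart progenitors) were wholly covered at the ends in all 4 libraries, and Isl2, a motor neuron factor, was at 96.2% to 100%. Lhx2, which specifies cortical progenitors in the forebrain, was the least covered of the class. Its end cover was 6.47% and 18.5% in del/del versus 15.8% and 15.6% in del/fl, with overlap, and its strongest peaks had a pileup of 6.00 and 6.98 in del/del versus 7.41 and 7.44 in del/fl, at the 7.20, 77.6, 59.0 and 84.8 percentiles of the autosomal peaks of their own lists. No peak at Lhx2 had a −log10 q of at least 5. The other LIM genes were at 49.9% to 84.2% at the ends. Lhx3 and Lhx4, which act in pituitary and motor neurons, were at 69.6% to 73.9% and at 50%, and Lhx5, a forebrain factor, was at 80.7% to 84.2%. Lhx8 (cholinergic neurons of the forebrain) was at 50% to 55.3% and Lhx9 (gonad) at 60.8% to 74.6%.

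The pair Lmx1a and Lmx1b, factors of the roof plate and of midbrain dopaminergic neurons, had long genes of 160512 and 80244 bp. Lmx1a was at 50% in 3 libraries and 49.9% in del/fl 1, and 11.8% to 22.0% of its body was covered. Lmx1b was at 68.2% and 66.3% at the ends in del/del versus 50% and 55.2% in del/fl. The libraries did not overlap, and the difference of 14.7 points (SE 2.59) had a limma adjusted p of 0.323, with a range of 0.174 to 1 over 13 alternatives. That was the smallest adjusted p of any member at the ends. The difference lay wholly at the far end of the gene, since the window at its start was at 100% in all 4 libraries. Lhx6, which marks cortical interneurons from the medial ganglionic eminence, went the other way, with 50% and 59.8% in del/del versus 76.4% and 65.2% in del/fl. Its difference was −15.9 points (SE 6.53, limma adjusted p = 0.624), again at the far end alone. With only peaks of −log10 q of at least 5, Lmx1b and Lhx6 were at 50% in all 4 libraries.

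All 3 SINE-class genes were heavily marked. Six3 and Six6, factors of the forebrain and eye, were at 100% at ends and body in every library. Six2, which keeps nephron progenitors in the kidney, was at 88.7% and 91.4% at its ends in del/del versus 92.6% and 83.3% in del/fl, with overlap. Six2 and Six3 are neighbours on chromosome 17, and the span from the first to the last of their bases (chr17:85613608-85688254) was covered to 69.2% and 72.6% in del/del versus 69.8% and 75.4% in del/fl, with 10 to 13 peaks. No peak was shared by a pair of members in any library.

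Of the 6 Iroquois genes, Irx1, Irx2 and Irx3 were at 100% at the ends in all 4 libraries, and Irx4, a factor of the heart ventricle, was at 100% in 3 and at 98.3% in del/fl 1. Irx5, known for its part in the heart and retina, was at 83.2% and 85.7% in del/del versus 88.6% and 86.4% in del/fl. Irx6 was at 67.6% and 75.2% in del/del versus 80.3% and 78.9% in del/fl. Both genes were lower in both del/del libraries, with differences of −3.01 points (SE 1.66) and −8.19 points (SE 3.45), each with a limma adjusted p of 0.624. The order of the means was the same with peaks of −log10 q of at least 5, where Irx5 was at 83.2% and 82.99% against 88.6% and 86.4%, and Irx6 at 67.6% and 73.3% against 80.3% and 78.9%. With peaks joined across gaps of up to 3 kb the difference was 0 at Irx5 and −3.81 points at Irx6, with 1 kb windows −0.24 and −20.5 points, and after scaling to autosomal cover 3.53 and −2.95 points. Every Iroquois body was at 100% in all libraries except that of Irx6, at 89.0% and 97.4% in del/del versus 100% in both del/fl libraries.

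The peaks at these genes were strong and long within their own lists. Pileup is the peak caller's number of stacked fragments, given here as the authors' value and used to place peaks within their own list. The strongest peak at each of the 37 marked members had a median pileup of 24.0 and 22.2 in del/del versus 23.8 and 23.2 in del/fl, against medians of 7.17, 5.93, 7.13 and 5.92 over all autosomal peaks of those lists. In each list 32 or 33 of the 37 stood above the 95th percentile of autosomal peaks. A peak over 10 kb was present at 30 to 31 members, while 2.11% to 2.75% of autosomal peaks were that long. These comparisons set the strongest or longest of all peaks at a gene against single peaks. The same shares over all genes are not given here. The marked members with the lowest pileup in all lists were Prrx2, Hesx1 and Lhx2 (5.10 to 7.85), followed by Pitx3 (8.29 to 9.94) and Vsx1 (9.61 to 11.6). Within their own lists, Prrx2, Hesx1 and Lhx2 ranged from the 7.20 to the 84.8 percentile of autosomal peaks. Pitx3 lay at the 85.5 to 90.7 percentiles and Vsx1 at the 90.8 to 95.1 percentiles. Pitx1 had the highest pileup of the paired-like class in all 4 lists (31.3 to 35.6).

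**Figure D2:**
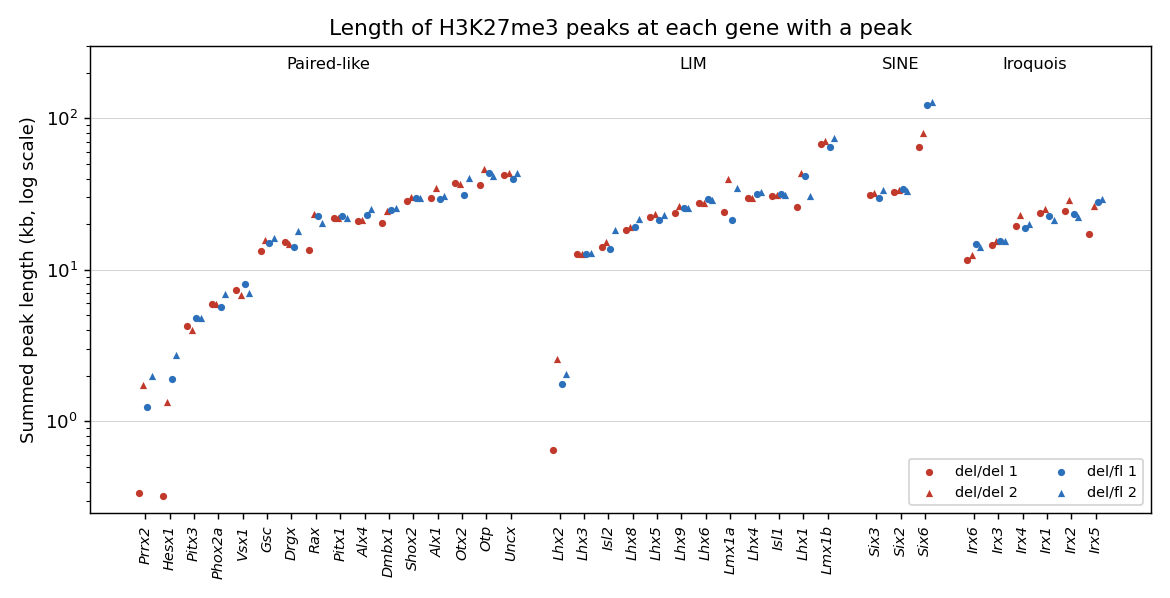
Summed length in kb, on a log axis, of the peaks that overlap each gene or 2.5 kb to either side, for the 37 genes with a peak. Each point is 1 library (red del/del, blue del/fl; circles replicate 1, triangles replicate 2); lengths run from 322 bp at Hesx1 to 128475 bp at Six6, and in bp the genotypes stand farthest apart at Six6.

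The mark sat at the start of the gene more often than at its far end. The strand was known for 30 members, and 23 of these had the whole 2.5 kb to each side of their start covered in all 4 libraries. In 5 of the 23 (Vsx1, Dmbx1, Drgx, Lhx4 and Lmx1a) the far end was bare in all 4, and in 13 it was wholly covered. Those 5 genes were 8436 to 160512 bp long and the 13 were 2028 to 12584 bp long. Lhx3 was the other way round, with 39.2% and 40.2% of its start window covered in del/del versus 44.5% and 47.7% in del/fl, and its far end at 100%. Among 25 members over 5 kb with a peak, the start was covered more in 13, the far end in 2 (Pitx3 and Lhx3) and neither in 10, so that the start led in 52.0%. Any difference of the 4-library means counted, and at Hesx1 it was 0.105 points between windows that overlap. By the same rule the start led in 70.5% of 3315 autosomal protein-coding genes, whose windows averaged 24.0% at the start and 8.09% at the far end, against 86.5% and 54.5% in the members. The 10 equal members had both windows wholly covered in all 4 libraries. These windows were defined after the values at both ends were seen.

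**Figure D3:**
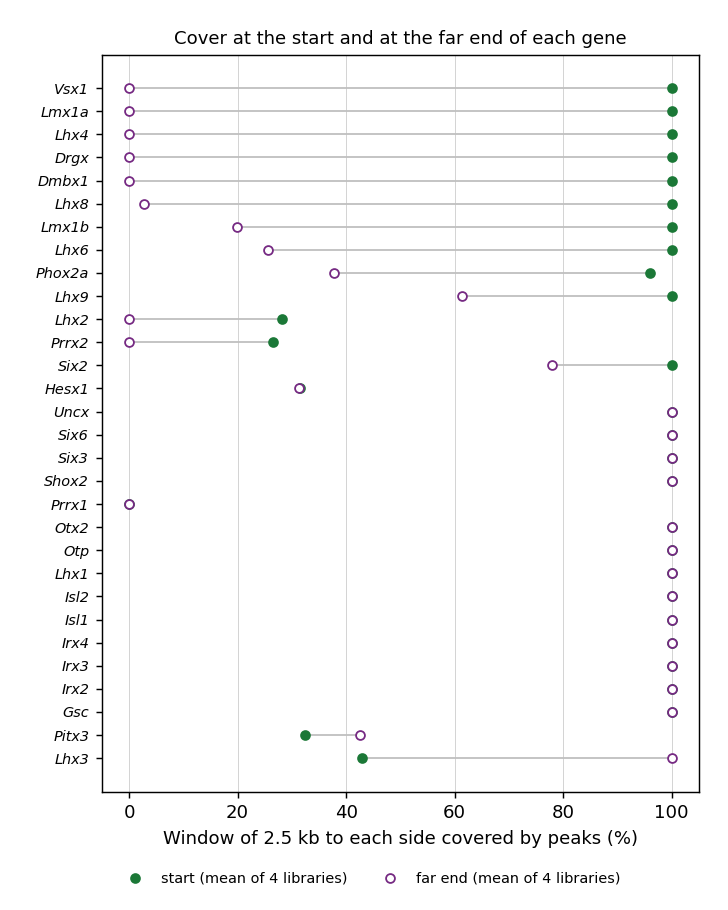
Percent of the 2.5 kb to each side of the start (filled green) and of the far end (open purple) covered by peaks, as the mean of 4 libraries, for the 30 members with a known strand. Grey lines join the windows of a gene; 23 starts lie at 100% and Lhx3 has the largest difference in favour of the far end.

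Around the starts, mean cover by class was highest close to the start. In the first 1-kb bin after the start, the 13 paired-like genes averaged 80.1% in del/del versus 83.2% in del/fl, the 11 LIM genes 86.2% and 90.6%, and the 3 SINE and 3 Iroquois genes 100% in both genotypes. From 20 kb after the start these means were 34.4% and 35.7%, 11.4% and 16.5%, 46.4% and 46.8%, and 0% and 0%. SINE cover was uneven beyond, at 5.07% and 23.3% from 29 kb and 86.3% and 82.7% from 40 kb. Six2 lies downstream of Six3 on chromosome 17. Bins from 40 kb after the Six3 start thus fell within 2.5 kb of Six2 or inside it. Paired-like cover was 5.72% and 10.96% from 32 kb and 21.8% and 21.7% from 39 kb. The peaks over the SINE starts themselves reached a median of 14283 to 18370 bp downstream. Where a peak spanned the start, it reached a median of 8276 to 9156 bp upstream and 12953 to 15411 bp downstream over the 4 libraries. The farthest reach upstream was that of Six6.

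**Figure D4:**
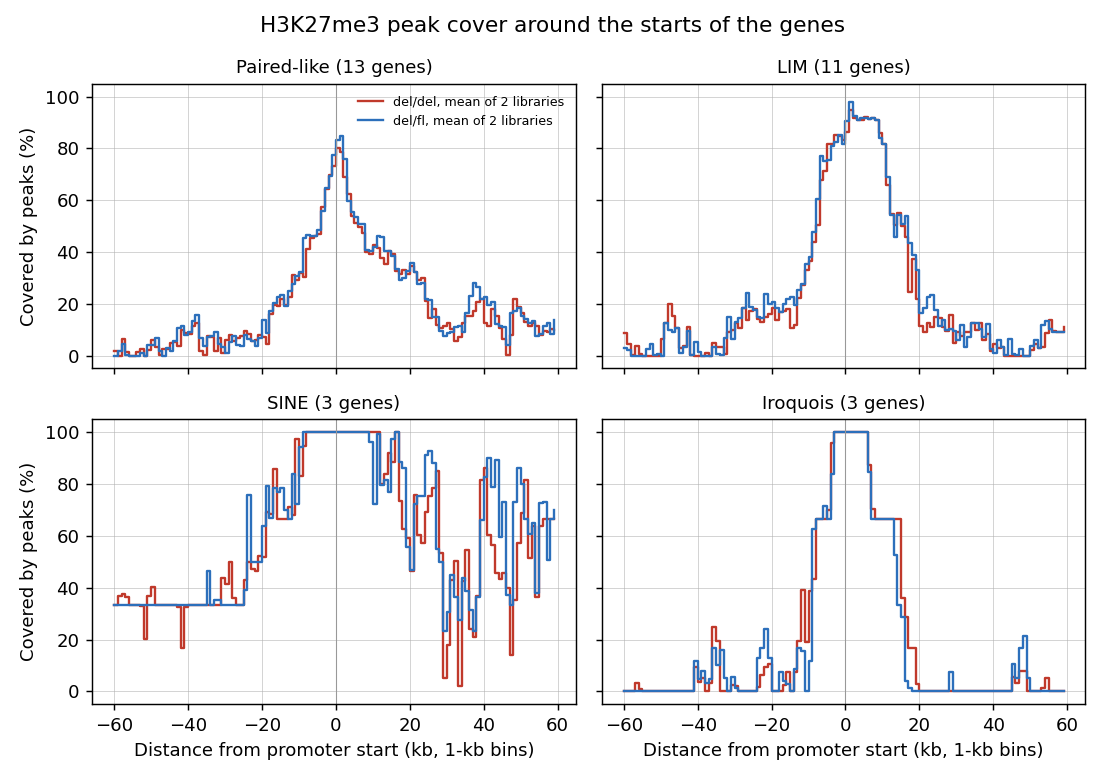
Mean percent of each 1-kb bin covered by peaks from 60 kb upstream to 60 kb downstream of the promoter start, by class, for the 30 members with a known strand. Red lines are the mean of 2 del/del libraries and blue lines the mean of 2 del/fl libraries; both peak within the first few kb after the start in the paired-like and LIM classes and reach 100% around it in the SINE and Iroquois classes.

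No member passed the test between the genotypes. The mean over the 39 genes was 70.1% ± 1.95 (SD, n = 2) in del/del versus 70.8% ± 0.34 (SD, n = 2) in del/fl at the ends, and 71.0% ± 1.21 and 72.6% ± 1.48 in the body. By limma with Benjamini-Hochberg adjustment over all genes with a peak, 0 of 37 members passed the threshold at the ends and 0 of 37 in the body, as did 0% of all 9131 and 9331 genes tested. On simulated data with variances as fitted, the test found none of the changed genes at the ends and only part of them in the body, so these counts do not show that cover was unchanged. At an unadjusted limma p under 0.05, 1 member was past the threshold at the ends (Lmx1b) and 1 in the body (Hesx1), while over all genes 5.66% were higher and 4.18% lower in del/del at the ends, and 6.45% and 3.26% in the body. The median difference over members was 0 in both measures, against −0.96 points at the ends and −0.20 points in the body over autosomal genes. The difference was 0 at 17 members at the ends and 16 in the body, of which 13 and 16 were wholly covered in all 4 libraries. The counts over all genes depended on single libraries. Without del/del 1, limma called 1063 genes higher and 54 lower at the ends, among them Alx1 (higher). Without del/fl 1 it called 263 and 1295, with no member among them, and without del/fl 2 296 and 1, with Irx4 (higher) as the only member. With 2 libraries against 2, an exact permutation test cannot go below p = 0.3333.

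By class, the difference at the ends was −0.54 points in the paired-like genes, −0.78 in the LIM genes, 0.71 in the SINE genes and −1.72 in the Iroquois genes. The libraries overlapped in the first 3 classes, and the sign rested on single libraries. Without del/del 1 the difference was 1.10 in the paired-like genes and 0.72 in the LIM genes, and without del/fl 2 it was −0.83 in the SINE genes. It was 0.69 in the paired-like genes with 1 kb windows. In the Iroquois class both del/del libraries lay below both del/fl libraries, and the difference turned to 5.66 points once each library was divided by its autosomal cover, a scaling that lifts wholly covered genes past 100%. In the body the differences were −2.03, −1.11, −1.38 and −1.14 points, and they too turned positive under that scaling (2.79, 4.68, 5.99 and 6.78). Without del/del 1 the body difference was 0.08 in the LIM genes and 0.66 in the SINE genes.

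The libraries of some members did not overlap between genotypes. At the ends 2 members were higher in del/del (Alx1 and Lmx1b, 5.41% of 37, against 6.36% of autosomal genes with a peak) and 5 were lower (Hesx1, Lhx3, Lhx6, Irx5 and Irx6, 13.5%, against 15.5%). These shares are near the background. In the body none was higher, against 6.74%, and 10 were lower (27%, against 14.7%): Alx4, Pitx3, Dmbx1, Hesx1, Lhx3, Lhx4, Lhx6, Lhx8, Lhx9 and Irx6. Apart from Hesx1, these body differences ran from −6.82 to −1.56 points. Once each library was divided by its autosomal cover, which was higher in each del/fl library than in the del/del library of the same number, 2 members were lower and 1 was higher.

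Lhx4 and Lhx3 show the size of such shifts in gene body cover. Lhx4 was at 48.5% and 49.1% in del/del versus 52.4% and 53.9% in del/fl (difference −4.33 points, SE 1.42, limma adjusted p = 0.557). Lhx3 was at 93.3% and 93.9% in del/del versus 96.5% and 98.6% in del/fl (difference −3.99 points, SE 1.21, limma adjusted p = 0.525). In both the del/del libraries sat close together and below the del/fl libraries. Both were picked out after their values were seen.

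The summed length of the peaks at a gene did not overlap between genotypes at 12 members. It was greater in del/del at Irx1 and Irx2 (5.41%, against 7% of autosomal genes with a peak) and smaller at 10 (27%, against 16.6%): Alx4, Pitx3, Dmbx1, Hesx1, Lhx4, Lhx6, Lhx8, Six6, Irx5 and Irx6. Six6 stood apart from the rest in size. The peak over Six6 was 64248 and 80180 bp long in del/del versus 121444 and 128475 bp in del/fl. In both del/del libraries another long peak, of 53178 and 43168 bp, ended 1112 and 811 bp upstream of it, so that the stretch which was 1 peak in del/fl was cut by a short gap. Over the union of the 4 peaks (chr12:72844434-72972908), 96.7% and 98.3% of bases were in peaks in del/del versus 98.0% and 100% in del/fl. With peaks joined across gaps of up to 3 kb, the domain was 147182 and 137564 bp long in del/del versus 145444 and 158863 bp in del/fl, and the genotypes overlapped. The peak over the gene lay at the 97.2 to 98.2 percentiles of autosomal peaks by pileup in the 4 lists.

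**Figure D5:**
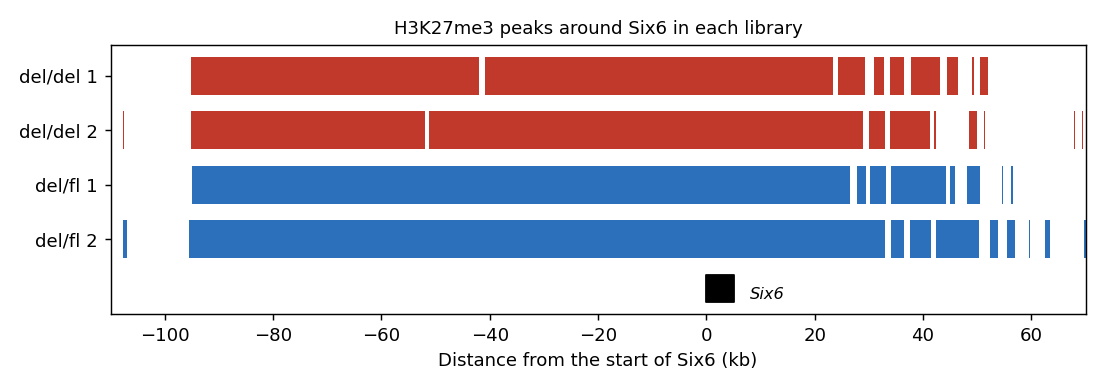
H3K27me3 peaks around Six6 in each library (red del/del, blue del/fl), with distance from the start of the gene in kb on the horizontal axis and the gene as a black box. The del/del domains are broken by gaps of 1112 and 811 bp upstream of the gene, and the del/fl domains run unbroken for 121444 and 128475 bp.

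The Iroquois genes lie in a cluster of 3 on chromosome 13 (Irx1, Irx2 and Irx4, chr13:71958232-73269622) and another of 3 on chromosome 8 (Irx3, Irx5 and Irx6, chr8:91798511-92680956). On chromosome 13 the DNA between the genes was covered to 5.62% and 7.27% in del/del versus 4.02% and 4.35% in del/fl, with 21 and 37 peaks in the cluster against 13 and 17. At Irx1 the peaks summed to 23649 and 25165 bp in del/del versus 22524 and 21283 bp in del/fl, and at Irx2 to 24384 and 28851 bp against 23331 and 22388 bp. All of these were higher in both del/del libraries. On chromosome 8 the DNA between the genes was covered to 10.5% and 13.7% in del/del versus 13.05% and 15.2% in del/fl, with overlap. There the peaks at Irx5 summed to 17305 and 26368 bp in del/del versus 28187 and 29217 bp in del/fl, and those at Irx6 to 11598 and 12587 bp against 14760 and 14181 bp. The genotypes overlapped at Irx4 (19503 and 22900 bp against 18959 and 19915 bp) and at Irx3 (14522 and 15552 bp against 15415 and 15574 bp). With peaks joined across gaps of up to 3 kb they also overlapped at Irx1 (25339 and 25165 bp against 22524 and 26020 bp) and Irx6 (13925 and 15871 bp against 14760 and 14181 bp), and did not at Irx2 (28466 and 28851 bp against 23331 and 24487 bp) and Irx5 (28545 and 27603 bp against 30365 and 33176 bp). The clusters were not tested against each other, and the DNA between the genes was examined after the values at the genes were seen.

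Homeobox genes and partners outside the 4 classes gave a frame for these levels. All 39 Hox genes were at 100% at ends and body in all 4 libraries. Of 12 other genes of the TALE superclass, to which the Iroquois class belongs, Meis3 and Mkx were the only ones with a peak at an end. Mkx was at 50% in all 4 libraries and Meis3 at 0% to 7.45%, while Meis1 and Meis2, which encode partners of Hox proteins, were at 0%. The mean over the 12 was 4.27% ± 0.14 in del/del versus 4.61% ± 0.25 in del/fl (SD, n = 2). Of 16 genes for partners of LIM and SINE factors, 6 had a peak at an end (Lmo1, Lmo2, Lmo3, Eya2, Eya4 and Tle1), with a mean of 5.38% ± 1.27 in del/del versus 7.50% ± 1.44 in del/fl (SD, n = 2). Ldb1, the cofactor of LIM factors, was at 0% in all 4 libraries, and Eya2 was at 41.5% and 41.8% in del/del versus 50% and 48.7% in del/fl. By limma, 0 genes of these lists passed the test in either direction.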

How the data were processed

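The 8 samples were 4 H3K27me3 libraries, 2 per genotype, and a whole-cell extract for each, which entered as the control in peak calling. The submitters' processing notes name bcl2fastq, Bowtie 0.12.9 and mm10. Each library's peaks were called with MACS2 2.1.0.20140616 in broad mode with a q-value setting of 0.05, per the file headers. The headers also give 1 tag kept per position, the larger dataset sampled down to the smaller, and local background over 1000 and 10000 bp. The lists held peaks past a q-value of 0.05. The largest q listed was 0.0919 and 0.0969 in del/del versus 0.0918 and 0.0983 in del/fl. Pileup, a signal of stacked fragments, is deposited per peak. Fold enrichment is deposited as a ratio of pileup to local background. MACS2 wrote each peak's p-value and q-value as −log10, and the authors deposited them so. Such values served to describe, rank or filter peaks within a list. Some are printed side by side by genotype, but none was tested between genotypes. The filter on −log10 q entered alternative limma fits of cover.

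Covered bases were counted with Python 3.11.15, numpy 2.4.6 and pandas 2.3.3 on a RefSeq gene table of GRCm38.p6. Promoter sequences and strands came from RefSeq, with the first listed start of each gene. Genotypes were compared on percent cover by limma 3.58.1 under R 4.3.3 (variance trend, robust, Benjamini-Hochberg over all autosomal and X genes with a peak, threshold 0.05). Counts of non-overlapping genes used autosomal genes as background. Whether libraries came from separate embryos is not stated in the labels. The p-values then measure the spread between these samples alone. Same-numbered libraries are not stated to share a line, so the fit was unpaired. Their deviations from the genotype means correlated at 0.111 (ends) and 0.122 (bodies) over genes. With 2 libraries a genotype, these values cannot settle which libraries share a line. The interval counts and limma were tested on simulated data. With variances as fitted, limma recovered no changed gene at the ends, at any size of change tried, and a part of those in the body. A simulation with more even variances was added after that result.

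The members, the other lists and the tests were chosen with earlier results of these data known. Genes given in every library were, per class, the 2 with the highest and the 2 with the lowest mean end cover (ties by alphabet), members whose genotypes did not overlap and differed by at least 10 points, members without a peak in some library, the Iroquois genes, and the 3 longest and 3 shortest domains. Other genes, the printed sequences, the start and far-end windows, and the limits of 50% cover, 10 kb and 10 CG dinucleotides were chosen after values were seen. Alternatives were lists cut to equal length (32937 peaks), stricter peaks (−log10 q of at least 5), joined peaks, scaling to autosomal cover, other windows, other variance settings, autosomal genes alone, a replicate block and leaving out each library. Signal by allele was not analysed here.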

Additional observations from a re-analysis of the deposited data

How the results depend on the processing

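Peak lists say where the mark passed a threshold, so cover depends on depth and on list length, and wholly covered genes cannot gain. With 2 libraries a genotype, the counts of genes called by limma swung with single libraries, and fits without 1 library assume that the lone library varies like the others. The main fits called 0 genes, so there was no called result whose direction could turn. Over all genes at the ends, where 0 were called, limma called 17 higher and 15 lower in del/del with peaks joined up to 3 kb, 202 and 20 scaled to autosomal cover, 64 and 47 with −log10 q of at least 5, 14 and 7 with 1 kb windows and 93 higher with 5 kb windows. Without 1 library these counts ran from 0 to 1063 higher (the most without del/del 1) and from 0 to 1295 lower (the most without del/fl 1). In the body they were 34 and 13 with joined peaks, 66 and 29 with the stricter peaks, 5 higher with lists of equal length, 9 higher without the variance trend, and 0 to 1097 higher and 0 to 1133 lower without 1 library. The causes of these shifts were not tested.

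Among members, limma called Vsx1 lower with the stricter peaks (1 member at the ends, −50 points, adjusted p = 7.21e-05, and 1 in the body, −37.8 points, adjusted p = 0.0418). The −log10 q of its strongest peak lay on either side of 5 (4.90 and 4.55 in del/del, 6.23 and 5.78 in del/fl). Without 1 library, 0 to 1 members were called higher at the ends (Alx1 without del/del 1, adjusted p = 0.0190, and Irx4 without del/fl 2, 1.74 points, adjusted p = 1.87e-09) and 0 to 2 lower in the body (Lhx9, −0.17 points, and Irx6, −2.61 points, without del/del 1). The replicate block left 0 members and 0 genes called in either measure. The fits without the filter on genes with a peak stopped with an error and gave no result.

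Members whose libraries did not overlap at the ends were 0 higher and 3 lower with joined peaks, 0 higher with the stricter peaks, 1 lower after scaling, and 2 to 7 higher (6 without del/del 1, 7 without del/fl 2) and 5 to 10 lower (10 without del/del 2 or del/fl 1) without 1 library, where fewer libraries overlap less by construction. In the body they were 6 lower with joined peaks, 1 higher and 6 lower with the stricter peaks, 1 higher and 2 lower after scaling, and 0 to 4 higher without 1 library (4 without del/del 1 or del/fl 2). For domain length they were 2 to 13 higher (13 without del/del 1 or del/fl 2) and 11 to 22 lower (22 without del/del 2, 20 without del/fl 1). The class differences moved to −2.997 points with the stricter peaks (paired-like, ends), to −0.64 with joined peaks (Iroquois, ends), to −2.70 (LIM) and −3.45 (Iroquois) with 1 kb windows and to −0.55 (Iroquois) with 5 kb windows. After scaling they were 4.15, 4.50, 8.24 and 5.66 points at the ends and 2.79, 4.68, 5.99 and 6.78 in the body (paired-like, LIM, SINE and Iroquois), since scaling lifts wholly covered genes in the libraries with less autosomal cover. Without 1 library the differences ran from −2.19 to 1.10 (paired-like), −2.27 to 0.72 (LIM), −0.83 to 2.25 (SINE) and −2.56 to −0.89 (Iroquois) at the ends, and from −3.48 to −0.58, −2.31 to 0.08, −3.42 to 0.66 and −1.84 to −0.43 in the body. Members with a peak in all 4 libraries numbered 32 to 37 over the alternatives.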
